A study of Homo sapiens with 6 samples.

Results

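The genes described here are 10 transcripts that report on extracellular signal-regulated kinase (ERK) activity: SPRY2, SPRY4, SPRED1, SPRED2, DUSP4, DUSP6, ETV4, ETV5, PHLDA1 and EGR1. They were taken by their symbols from a table of 26184 genes and loci, each symbol matched 1 line, and all 10 had enough counts to be tested. Poly(A) RNA was sequenced from Huh7 P cells (3 samples) and from Huh7 LR cells (3 samples). Huh7 P is the untreated parental human hepatocellular carcinoma cell line, given with a WT genotype. Huh7 LR is a single lenvatinib-resistant line that was derived from it, also labelled WT, by lenvatinib raised from 1 μM and then held at 20 μM, over 10 months. Lenvatinib is an inhibitor of several receptor tyrosine kinases, among them the receptors for vascular endothelial and fibroblast growth factors, and whether it was present at harvest of the RNA samples is not stated. Since there is 1 resistant line, resistance and 10 months of separate culture cannot be told apart. In bulk RNA, fewer cells that express a gene and less RNA per cell cannot be told apart either.

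Growth factor receptors switch on RAS, which passes the signal through the kinases RAF and MEK to ERK. Active ERK raises the transcription of genes that then dampen the same pathway. Sprouty and SPRED proteins act near RAS and RAF, and dual-specificity phosphatases (DUSP) remove phosphate from ERK and related kinases. ERK also drives ETS transcription factors of the PEA3 group, such as ETV4 and ETV5, and immediate early genes such as EGR1. In liver cancer cells with FGF19 and FGFR4 signalling, these transcripts are commonly used as a readout of receptor output.

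The 10 genes did not move together. At an adjusted p under 0.05, 6 were lower in Huh7 LR (SPRY2, SPRY4, DUSP6, ETV5, SPRED1 and ETV4), 3 were higher (EGR1, DUSP4 and PHLDA1), and SPRED2 did not pass. Among all 17531 genes and loci tested, 45.7% passed at this level, 22.4% lower and 23.3% higher. Among the 14053 of these that are annotated genes, 25.0% were lower and 24.6% higher. The median log2 fold change was -0.66 over the 10 genes and 0.0 over all features tested. In 9 of the 10 genes the libraries of the lines did not overlap, as in 55.9% of all features tested. Past 2-fold, with an adjusted p under 0.001, SPRY2 was lower and EGR1 was higher, against 6.21% of all features (1.78% lower and 4.43% higher).

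**Figure D1:**
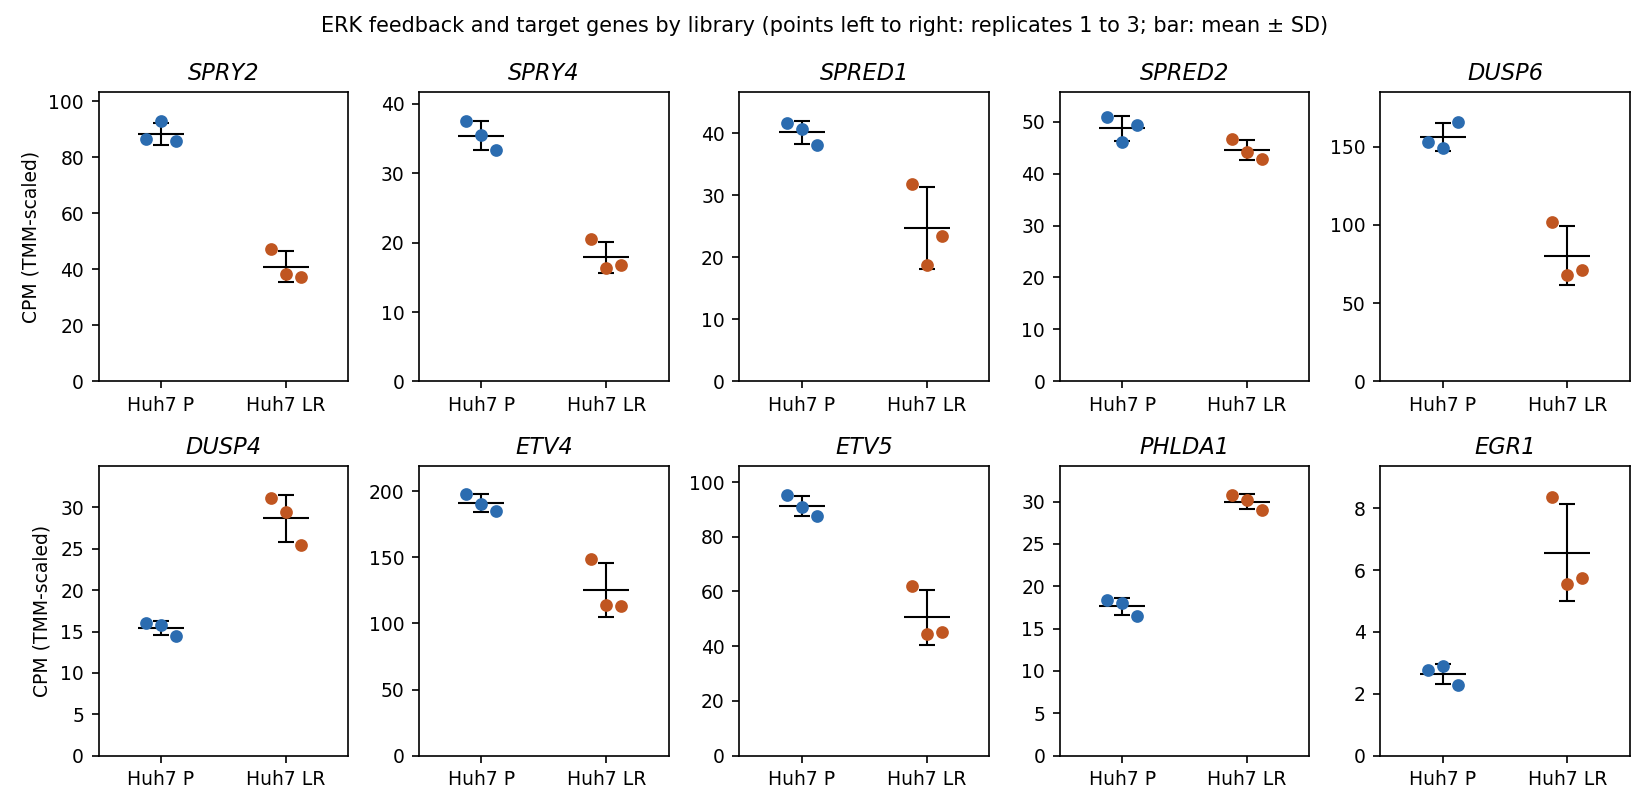
CPM (counts scaled to library size, corrected by TMM, linear axes from 0) of the 10 genes in each library of Huh7 P (blue) and Huh7 LR (orange), with the mean and SD of 3 samples. SPRED2 is the gene whose lines overlap, and in all 10 genes Huh7 LR replicate 1 is the highest of the 3 Huh7 LR libraries.

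The libraries held between 62738937 and 71427573 counts, at which 1 count is worth 0.0139 to 0.0162 CPM, and the lowest count of any of the 10 genes in a library was 150. Hepatocyte genes were abundant, and of 12 listed 7 were higher in Huh7 LR and 5 did not pass. The counts of this paragraph stand against 23.3% higher and 22.4% lower of all features tested. ALB, the gene of albumin, averaged 13000 CPM in Huh7 P and 21600 CPM in Huh7 LR. Of 8 fibroblast markers DCN and THY1 had no count, 2 of 3 tested were higher, and the list summed to 2.27 to 2.43 CPM in Huh7 P and 5.12 to 8.22 CPM in Huh7 LR. HLA-DRA and TYROBP of 8 leukocyte markers had no count, 2 of 4 tested were lower, and LYZ and CD68 gave most of a sum of 130 to 140 CPM in Huh7 P and 56.0 to 63.3 CPM in Huh7 LR. CDH5, KDR and TEK of 6 endothelial markers had no count, 2 of 3 tested were higher, and PECAM1 gave most of a sum of 39.2 to 47.9 CPM in Huh7 P and 65.7 to 71.7 CPM in Huh7 LR. The part of these markers in the results was not tested. Huh7 LR replicate 1 held the highest CPM of the Huh7 LR libraries in all 10 genes, as in 36.3% of all features tested. Its ratio to the mean of the other two ranged from 1.04 in PHLDA1 to 1.51 in SPRED1. Over all features its median log2 distance from the other two was 0.172, against 0.181 for replicate 2 and 0.102 for replicate 3. Without it the same 6 genes were lower and the same 3 higher at an adjusted p under 0.05, and SPRY4, DUSP6 and ETV5 also passed 2-fold, so that 4 genes were lower past 2-fold.

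Promoter sequences are shown for the higher genes EGR1 and PHLDA1 and the lower genes SPRY2 and DUSP6, since these transcripts are read as outputs of the same pathway and moved in opposite directions. RefSeq (GRCh38.p14) gave a sequence for 7 of the 10 genes, from 250 bases before to 50 bases after each start, with several starts for SPRY2 and SPRED2. Both strands were searched for the ETS motif CCGGAA and its longer form CCGGAAGT, which contains it, for the AP-1 site TGACTCA, the cyclic AMP response element TGACGTCA, the EGR site GCGTGGGCG, and the CArG box bound by serum response factor. Capitals mark the matches, and for SPRY2 the start farthest upstream is shown.
EGR1 (chr5:138465229-138465528, plus strand): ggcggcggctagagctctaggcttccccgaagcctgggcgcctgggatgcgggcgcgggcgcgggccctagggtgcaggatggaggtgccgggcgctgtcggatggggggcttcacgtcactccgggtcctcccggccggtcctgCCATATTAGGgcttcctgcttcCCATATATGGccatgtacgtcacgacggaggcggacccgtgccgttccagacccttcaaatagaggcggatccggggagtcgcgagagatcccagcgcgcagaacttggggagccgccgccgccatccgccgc
PHLDA1 (chr12:76031727-76032026, minus strand): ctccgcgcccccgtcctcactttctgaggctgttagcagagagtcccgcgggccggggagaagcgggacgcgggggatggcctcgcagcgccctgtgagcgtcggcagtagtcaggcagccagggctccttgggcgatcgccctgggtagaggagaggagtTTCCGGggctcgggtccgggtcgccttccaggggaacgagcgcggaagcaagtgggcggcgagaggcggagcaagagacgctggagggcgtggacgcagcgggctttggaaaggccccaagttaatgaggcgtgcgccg
SPRY2 (chr13:80341077-80341376, minus strand): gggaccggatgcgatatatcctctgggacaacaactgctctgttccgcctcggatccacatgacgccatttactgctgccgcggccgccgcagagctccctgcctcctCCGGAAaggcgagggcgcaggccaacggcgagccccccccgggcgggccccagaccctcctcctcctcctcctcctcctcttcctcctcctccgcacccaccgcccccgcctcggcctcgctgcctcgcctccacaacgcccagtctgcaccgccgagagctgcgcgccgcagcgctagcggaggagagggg
DUSP6 (chr12:89352452-89352751, minus strand): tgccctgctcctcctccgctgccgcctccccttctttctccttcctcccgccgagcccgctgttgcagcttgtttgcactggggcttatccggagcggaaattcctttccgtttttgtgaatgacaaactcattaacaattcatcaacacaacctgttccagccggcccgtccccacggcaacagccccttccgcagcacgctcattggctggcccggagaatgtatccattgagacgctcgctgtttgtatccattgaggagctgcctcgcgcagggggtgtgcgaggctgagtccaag
EGR1 held 2 CArG boxes, CCATATTAGG and CCATATATGG, which begin 105 and 83 bases before the start. A CArG box is present in 1.29% of 35116 promoter entries. The ETS hexamer was found once in SPRY2, 142 bases before the start, and once in PHLDA1, 89 bases before it, and is present in 17.25% of entries. DUSP6 held no match in this window. Of the entries that are not printed, 1 of the SPRED2 starts held an AP-1 site 6 bases before the start, as do 4.95% of entries. The longer ETS form (4.14% of entries), the cyclic AMP response element (1.85%) and the EGR site (0.79%) were not among the letters of any entry of these genes. A match is a stretch of letters and not a measured binding site. The motifs were chosen after the letters were seen, so a share of entries does not measure how unusual a match is.

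The Sprouty genes encode membrane-anchored inhibitors of signalling from receptor tyrosine kinases to ERK. SPRY2 (ENSG00000136158, GRCh38 chromosome 13, 80335976 to 80340951) gave 86.6, 92.8 and 85.7 CPM in the Huh7 P libraries and 47.3, 38.5 and 37.2 CPM in the Huh7 LR libraries. Every Huh7 LR library was well below every Huh7 P library. Huh7 P averaged 88.4 ± 3.83 CPM (SD, n = 3) and Huh7 LR averaged 41.0 ± 5.49 CPM (SD, n = 3), 2.16-fold lower (log2 fold change -1.11 with a standard error, SE, of 0.09, adjusted p = 5.9e-06), and 2.81% of the features tested had a lower log2 fold change. SPRY4 (ENSG00000187678, chromosome 5, 142310427 to 142326455) gave 37.5, 35.5 and 33.3 CPM in Huh7 P and 20.5, 16.4 and 16.8 CPM in Huh7 LR. The lines did not overlap, and the log2 fold change was -0.99 (SE 0.10, adjusted p = 2.16e-05). The ratio of SPRY2 to SPRY4 counts within a library averaged 1.32 ± 0.10 (log2, SD, n = 3) in Huh7 P and 1.19 ± 0.04 (log2, SD, n = 3) in Huh7 LR. These ratios overlapped between the lines, and their difference was -0.13, of the size of the replicate spread (two-sided exact permutation test, p = 0.2, adjusted p = 0.2 over 4 pairs, where 0.1 is the smallest p that 3 against 3 allows). Of the remaining Sprouty genes, SPRY1 was also lower, from 27.5 to 20.4 CPM (log2 fold change -0.43, adjusted p = 0.0105, and 0.0521 without Huh7 LR replicate 3), and SPRY3, at 0.854 and 0.707 CPM, did not pass (log2 fold change -0.27, 95% interval -0.84 to 0.30).

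SPRED1 and SPRED2 carry a Sprouty-related domain, and SPRED1 is known to bring the RAS inactivator neurofibromin to the membrane. SPRED1 (ENSG00000166068, chromosome 15, 38252326 to 38357249) gave 41.7, 40.6 and 38.1 CPM in Huh7 P and 31.8, 18.7 and 23.5 CPM in Huh7 LR. The lines did not overlap, but the Huh7 LR libraries were widely spread, with replicate 1 the highest. Its log2 fold change was -0.70 (SE 0.15, adjusted p = 0.00321). It ranged from -0.53 without Huh7 LR replicate 2 to -0.93 without Huh7 LR replicate 1. SPRED2 (ENSG00000198369, chromosome 2, 65310851 to 65432637) gave 50.8, 46.1 and 49.3 CPM in Huh7 P and 46.6, 44.1 and 42.8 CPM in Huh7 LR. These ranges overlapped. Its log2 fold change was -0.13 with a 95% interval from -0.29 to 0.03 (adjusted p = 0.159). The log2 ratio of SPRED1 to SPRED2 counts was -0.28 ± 0.09 (SD, n = 3) in Huh7 P and -0.88 ± 0.34 (SD, n = 3) in Huh7 LR. All 3 Huh7 LR libraries had the lower ratio, by -0.60 on average (two-sided exact permutation test, p = 0.1, the smallest possible, adjusted p = 0.133 over 4 pairs). SPRED3 stayed between 0.50 and 4.89 CPM and its lines overlapped, with a log2 fold change of 0.21 that was -0.31 without Huh7 LR replicate 1 and 0.73 without Huh7 LR replicate 2 (adjusted p = 0.0331).

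The phosphatases gave the largest contrast between related genes. DUSP6 encodes a cytoplasmic phosphatase selective for ERK, and DUSP4 a nuclear one that is itself an ERK target and acts on several MAP kinases. DUSP6 (ENSG00000139318, chromosome 12, 89347232 to 89353271) gave 153, 149 and 166 CPM in Huh7 P and 102, 67.8 and 71.5 CPM in Huh7 LR. All Huh7 LR libraries were lower, with replicates 2 and 3 farthest from the Huh7 P mean of 156 CPM. Its log2 fold change was -0.96 (SE 0.13, adjusted p = 1.65e-04). DUSP4 (ENSG00000120875, chromosome 8, 29333064 to 29350668) gave 16.0, 15.8 and 14.5 CPM in Huh7 P and 31.1, 29.4 and 25.5 CPM in Huh7 LR. All Huh7 LR libraries were higher, with a log2 fold change of 0.89 (SE 0.09, adjusted p = 2.94e-05). The log2 ratio of DUSP4 to DUSP6 counts was -3.34 ± 0.15 (SD, n = 3) in Huh7 P and -1.47 ± 0.25 (SD, n = 3) in Huh7 LR. This shift of 1.87, towards DUSP4, was the largest of the 4 pairs compared, and the lines did not overlap (two-sided exact permutation test, p = 0.1, the smallest possible, adjusted p = 0.133 over 4 pairs). Since DUSP4 was higher and DUSP6 lower in every Huh7 LR library, this p was already set and adds nothing to the single-gene results. Of the exon bases of DUSP6, 40.5% lie opposite exons of the antisense gene AC024909.2, which the table does not list, and the library kit named in the labels does not mark strand, so that reads of this pair cannot be told apart.

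**Figure D2:**
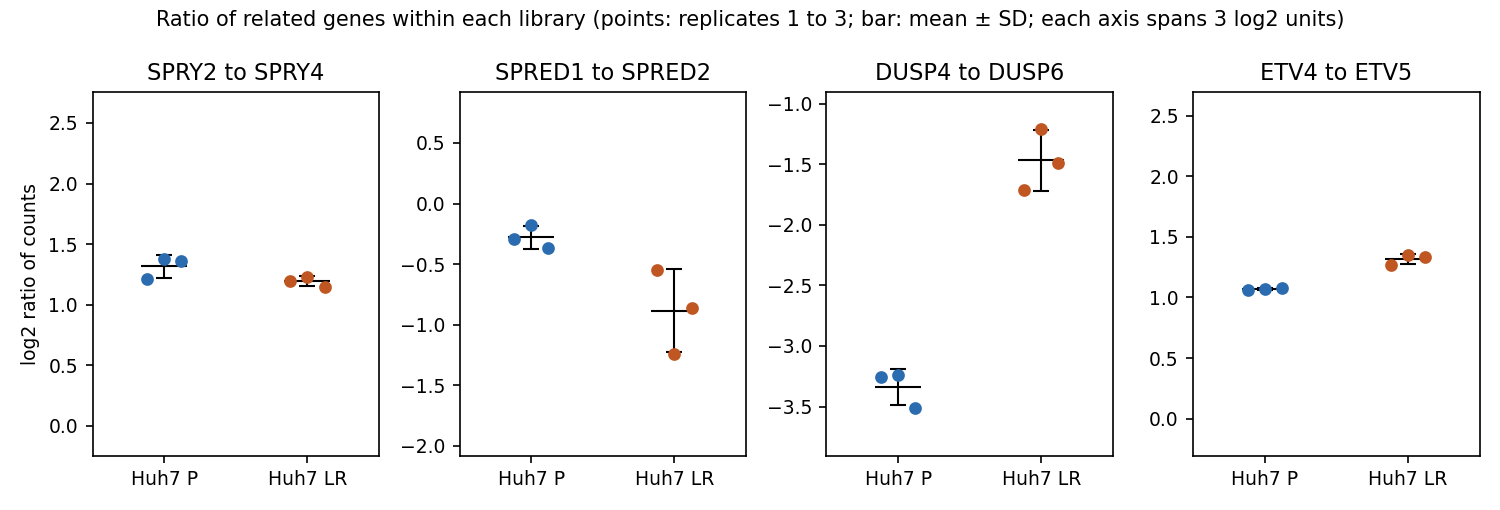
Log2 ratio of the counts of related genes within each library, for Huh7 P (blue) and Huh7 LR (orange), with the mean and SD of 3 samples and axes of equal span. DUSP4 rose relative to DUSP6 by 1.87, SPRED1 fell relative to SPRED2 by 0.60, ETV4 differed relative to ETV5 by 0.25, and the SPRY2 to SPRY4 ratio overlapped between the lines.

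Other MAP kinase phosphatases were chosen after their values were seen and are given as single genes. Of the cytoplasmic ERK phosphatases, DUSP7 was lower by a log2 fold change of -0.28 (adjusted p = 0.0421), a call that was lost in 9 of 13 alternatives, among them without Huh7 P replicate 1, 2 or 3 or Huh7 LR replicate 2 or 3 (adjusted p from 0.055 to 0.137). DUSP9, the highest of the phosphatases at 81.1 FPKM in Huh7 P (fragments scaled by transcript length and depth), was higher by 0.37 on the log2 scale (adjusted p = 0.00587). Of the inducible nuclear phosphatases, DUSP1 rose by 0.94 on the log2 scale (adjusted p = 4.71e-05), close to that of DUSP4. DUSP5, which is selective for ERK, had 65.9 ± 2.24 CPM (SD, n = 3) and 62.7 ± 16.7 CPM (SD, n = 3), with overlapping lines (log2 fold change -0.07, 95% interval -0.39 to 0.24). Without Huh7 LR replicate 1 it was lower, at -0.31 (adjusted p = 0.0038). DUSP8, DUSP10 and DUSP16 act mainly on the stress kinases JNK and p38. DUSP8 gave 0.920, 0.454 and 0.658 CPM in Huh7 P and 5.63, 4.68 and 4.54 CPM in Huh7 LR, which is 7.25-fold higher (log2 fold change 2.86, SE 0.24, adjusted p = 5.56e-06). DUSP10 rose by 1.19 on the log2 scale (adjusted p = 1.33e-04) and DUSP16 by 0.41 (adjusted p = 0.00227). DUSP2 had too few counts to test.

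**Figure D3:**
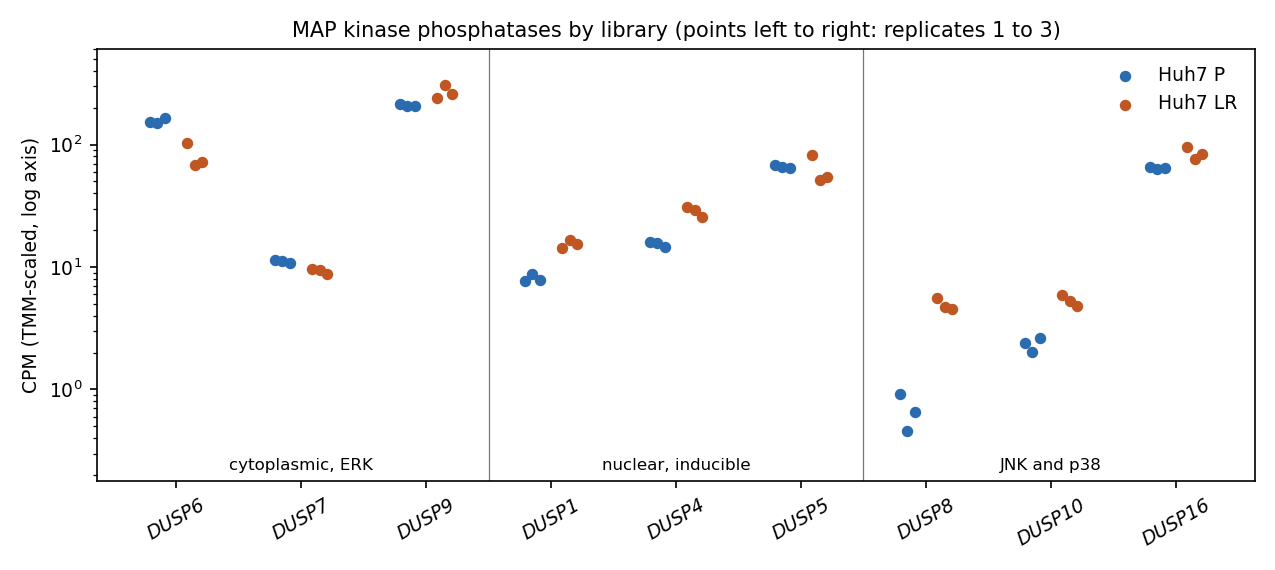
CPM (log axis) of 9 MAP kinase phosphatase genes in each library of Huh7 P (blue) and Huh7 LR (orange), ordered by the kinases they are known to act on. DUSP6 and DUSP7 lie lower in Huh7 LR, DUSP5 overlaps, and DUSP9, DUSP1, DUSP4, DUSP8, DUSP10 and DUSP16 lie higher.

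ETV4 and ETV5 are ETS transcription factors that receptor tyrosine kinase signalling raises through ERK. ETV4 (ENSG00000175832, chromosome 17, 43527844 to 43579620) gave 198, 190 and 185 CPM in Huh7 P and 149, 114 and 113 CPM in Huh7 LR. ETV5 (ENSG00000244405, chromosome 3, 186046308 to 186110318) gave 95.2, 91.0 and 87.6 CPM in Huh7 P and 62.0, 44.5 and 45.1 CPM in Huh7 LR. In both genes all Huh7 LR libraries were lower, replicates 2 and 3 lay close together and replicate 1 lay between them and Huh7 P. The log2 fold change was -0.61 for ETV4 (SE 0.10, adjusted p = 6.53e-04) and -0.85 for ETV5 (SE 0.12, adjusted p = 1.51e-04). The log2 ratio of ETV4 to ETV5 counts was 1.07 ± 0.01 (SD, n = 3) in Huh7 P and 1.32 ± 0.05 (SD, n = 3) in Huh7 LR. The ratio was higher in all Huh7 LR libraries, by 0.25 on average (two-sided exact permutation test, p = 0.1, the smallest possible, adjusted p = 0.133 over 4 pairs). ETV1, the related PEA3 factor, did not pass, with 24.7 and 24.4 CPM (log2 fold change -0.02, 95% interval -0.25 to 0.21). A short stretch of exon is shared between ETV4 and DHX8 on the opposite strand (1.9% of the exon bases of ETV4) and between ETV5 and DGKG on the same strand (2.8%). DHX8 had 6987 to 9491 counts a library, near the 7725 to 14221 of ETV4, and DGKG had at most 3.

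PHLDA1, a pleckstrin homology-like protein linked to apoptosis and to dampening of receptor signalling, and EGR1, a zinc finger transcription factor induced within minutes of growth factor addition, were higher in Huh7 LR. PHLDA1 (ENSG00000139289, chromosome 12, 76025447 to 76033932) gave 18.4, 18 and 16.5 CPM in Huh7 P and 30.8, 30.2 and 29 CPM in Huh7 LR. Both lines were tightly grouped and far apart, with a log2 fold change of 0.77 (SE 0.08, adjusted p = 2.65e-05). Antisense genes that the table does not list, AC011611.3 and AC011611.4, lie opposite 6.9% and 9.7% of its exon bases. EGR1 (ENSG00000120738, chromosome 5, 138465490 to 138469315) gave 2.77, 2.90 and 2.29 CPM in the Huh7 P libraries (199, 179 and 150 counts) and 8.36, 5.55 and 5.75 CPM in the Huh7 LR libraries (545, 389 and 392 counts). It was the least abundant of the 10 genes and rose 2.47-fold (log2 fold change 1.30, SE 0.18, adjusted p = 2e-04), with 94.2% of the features tested at a lower log2 fold change. The value was 1.09 without Huh7 LR replicate 1 and 0.72 on log2(FPKM + 1), a scale that understates the change of a gene of this level. EGR1 kept an adjusted p under 0.05 throughout, but its passing of 2-fold at an adjusted p under 0.001 was lost on log2(FPKM + 1) and without Huh7 P replicate 1, 2 or 3 (adjusted p of 0.00149, 0.00103 and 0.00199). Of its relatives, EGR2 had 0 to 5 counts a library in Huh7 P and 10 to 17 in Huh7 LR (adjusted p = 0.0275), a call that was lost in 7 of 10 alternatives, among them without Huh7 P replicate 2 or 3 or Huh7 LR replicate 2 or 3 (adjusted p from 0.0702 to 0.0922), while EGR3 and EGR4 had too few counts to test.

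**Figure D4:**
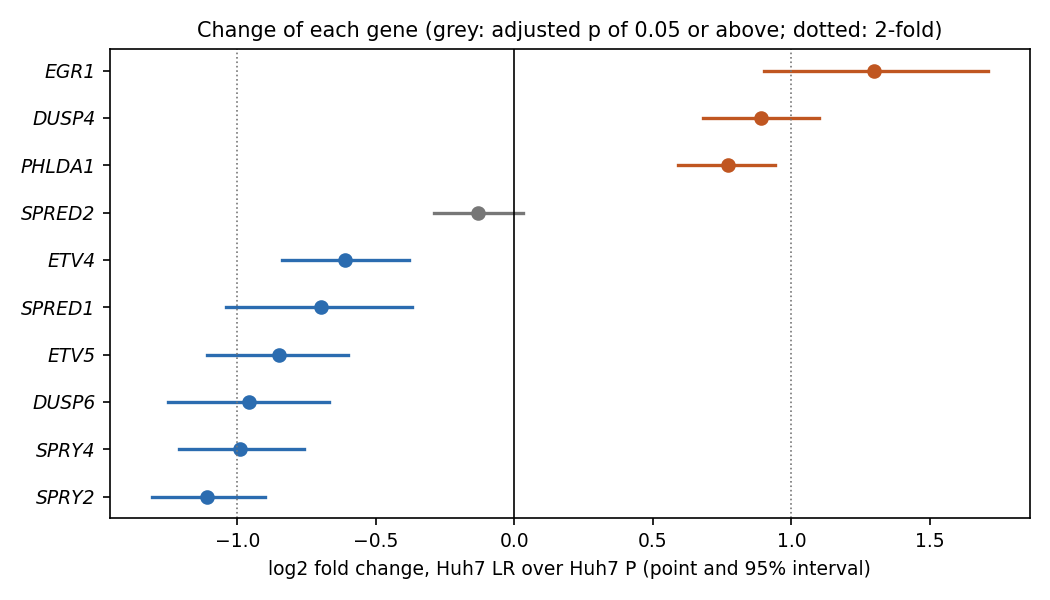
Log2 fold change of Huh7 LR over Huh7 P for the 10 genes with its 95% interval from edgeR's quasi-likelihood fit, where dotted lines mark 2-fold and grey marks an adjusted p of 0.05 or above. The order runs from SPRY2 at -1.11 to EGR1 at 1.30, with SPRED2 at -0.13 the gene whose interval includes 0.

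Levels can be compared between genes per transcript length, on the authors' FPKM scale. In Huh7 P, ETV4 was the highest at 84.4 ± 4.16 FPKM (SD, n = 3), followed by DUSP6 at 36.3 ± 1.75, SPRY2 at 35.9 ± 1.74, ETV5 at 21.4 ± 0.806, SPRED2 at 11.5 ± 0.803 and SPRY4 at 7.75 ± 0.736 FPKM. DUSP6 and SPRY2 did not differ beyond their spread. The remaining genes were SPRED1 at 4.74 ± 0.26, PHLDA1 at 2.66 ± 0.145, DUSP4 at 2.58 ± 0.152 and EGR1 at 0.774 ± 0.0982 FPKM. In Huh7 LR, ETV4 was again the highest at 56.1 ± 8.56 FPKM, and DUSP6 (18.5 ± 4.05), SPRY2 (17.4 ± 3.02), ETV5 (12.1 ± 2.64) and SPRED2 (10.6 ± 0.613 FPKM) lay within a narrower range. DUSP4 (4.86 ± 0.501 FPKM) and PHLDA1 (4.68 ± 0.0774 FPKM) came to lie above SPRED1 (2.98 ± 0.822 FPKM), and did not differ from SPRY4 (4.13 ± 0.628 FPKM) beyond the spread of the libraries.

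The genes with the most similar pattern over the 6 libraries were sought for SPRY2 and EGR1, by the root mean square difference of centred log2 CPM among 12292 other annotated genes. For SPRY2 they were DEPTOR, which encodes an mTOR-binding inhibitor, at 0.060, IQCK at 0.072 and SGCB at 0.077, with log2 fold changes of -1.15, -1.14 and -1.09. For EGR1 they were INPP5J, an inositol phosphatase gene, at 0.032, PLA2G4C at 0.084 and SPAG4 at 0.097, with log2 fold changes of 1.27, 1.28 and 1.18. The likeness is a description of 6 values a gene.

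Around the 10 genes, 4 lists of the same pathway were counted. The ERK cascade itself, from GRB2 and SOS to RAF, MEK, ERK and its substrate kinases, differed by less than 2-fold in transcript level. Of its 24 genes tested, 4 (16.7%) were higher, 9 (37.5%) were lower and 11 did not pass, against 23.3% higher and 22.4% lower of all features tested. The log2 fold changes lay between -0.43 for NRAS (adjusted p = 0.00256) and 0.41 for MKNK2, which encodes a kinase that ERK activates (adjusted p = 0.00132). The next of each were SHOC2, a RAF-activating scaffold, at -0.32 (adjusted p = 0.0191) and MKNK1 at 0.27 (adjusted p = 0.0278). Of 13 alternatives, MKNK1 did not pass in 7 and SHOC2 did not in 1. The median was -0.03. The counts moved by over 1.5 times with 4 of the libraries left out, with 2 higher without Huh7 P replicate 1, 1 higher and 3 lower without Huh7 P replicate 2, 1 higher and 4 lower without Huh7 P replicate 3, and 2 higher and 5 lower without Huh7 LR replicate 3. Without Huh7 LR replicate 1 they were 4 higher and 8 lower, and without Huh7 LR replicate 2 they were 5 higher and 8 lower. Over all features, 4093 were higher and 3923 lower, and with 1 library left out these counts ranged from 3349 and 3002 without Huh7 P replicate 2 to 4135 and 3984 without Huh7 LR replicate 2.

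In the list of relatives and other feedback inhibitors, 7 of 26 genes tested were higher, 5 were lower and 14 did not pass, with a median log2 fold change of -0.03. These shares of 26.9% and 19.2% lie near those of all features tested. Past 2-fold were DUSP8 and DUSP10, of which DUSP10 was not without Huh7 P replicate 1 or 2 (adjusted p of 0.00112 and 0.0012) and neither was on log2(FPKM + 1). The lowest values were those of SH2B3, an adaptor that restrains receptor signalling (-0.52, adjusted p = 0.0013), and RASA2, a RAS inactivator (-0.50, adjusted p = 0.00258). Without Huh7 LR replicate 3, 3 genes of this list were lower.

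**Figure D5:**
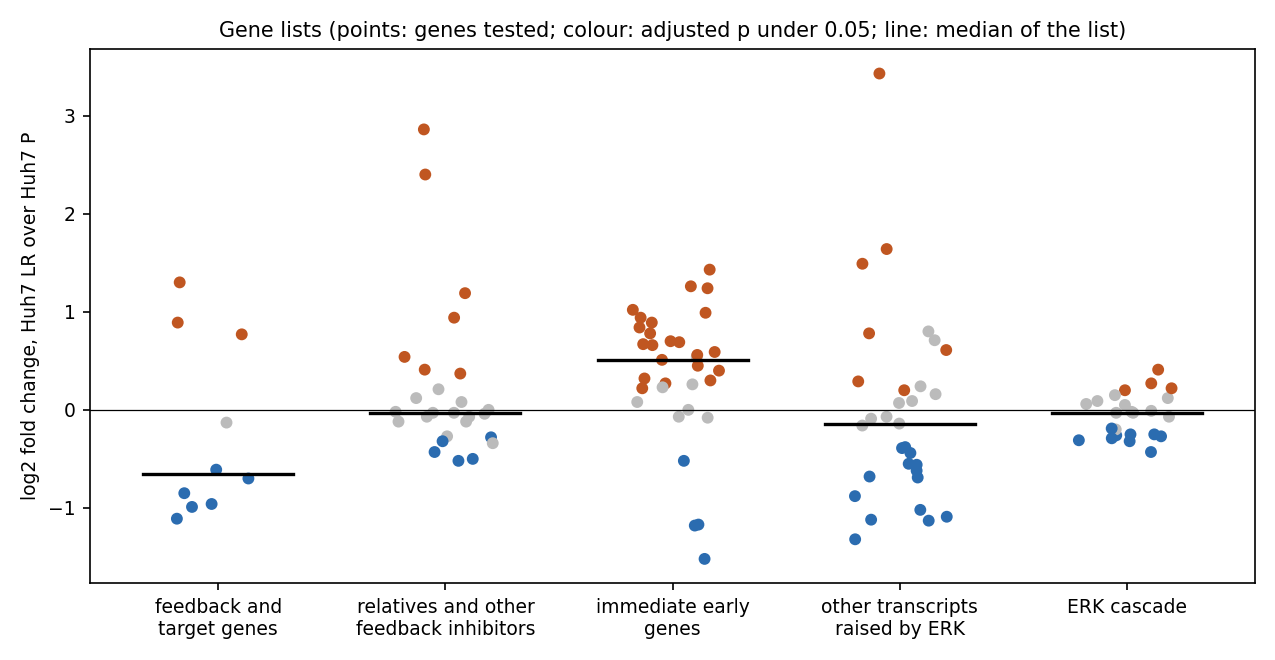
Log2 fold change of Huh7 LR over Huh7 P for each tested gene of the 10 feedback and target genes and of 4 lists of the same pathway, coloured where the adjusted p is under 0.05, with the median of each list as a line. The median is -0.66 for the 10 genes, 0.51 for immediate early genes, -0.14 for other transcripts raised by ERK and -0.03 for the other 2 lists.

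Immediate early genes are induced by growth factors and stress without new protein synthesis. Whether each gene of this list meets that definition was not tested. Of 33 tested, 22 (66.7%) were higher, 4 (12.1%) were lower and 7 did not pass, where 23.3% of all features tested were higher and 22.4% lower. Their median log2 fold change was 0.51. Past 2-fold, CYR61, which encodes a matrix protein, rose by 1.43 (adjusted p = 9.37e-05), JUND by 1.26 (adjusted p = 5.24e-06), KLF4 by 1.24 (adjusted p = 7.12e-04) and the stress-response factor ATF3 by 1.02 (adjusted p = 6.18e-04) on the log2 scale. MYC fell by 1.52 (adjusted p = 1.35e-06), FOSL1, an AP-1 subunit that ERK stabilises, by 1.18 (adjusted p = 2.24e-04) and IER3 by 1.17 (adjusted p = 3.54e-05). JUND and MYC passed 2-fold at an adjusted p under 0.001 in all 13 alternatives. ATF3 did not in 7 of them, among them without Huh7 LR replicate 1 (0.87) and without Huh7 P replicate 1, 2 or 3 or Huh7 LR replicate 3 (adjusted p from 0.0031 to 0.00465). KLF4 did not in 6, among them without Huh7 P replicate 2 or 3 or Huh7 LR replicate 2 or 3 (adjusted p from 0.00199 to 0.00355). FOSL1 did not in 4, among them without Huh7 P replicate 1 or 2 or Huh7 LR replicate 3 (adjusted p from 0.00147 to 0.00199), CYR61 did not without Huh7 P replicate 1 (adjusted p = 0.00105), and IER3 did not on log2(FPKM + 1). All kept an adjusted p under 0.05. Heat shock genes, which stress at harvest can raise, were counted beside them. Of 10 tested, 6 (60.0%) were lower, against 22.4% of all features, and 4 did not pass, and the list summed to 5470 to 6150 CPM in Huh7 P and 3800 to 4300 CPM in Huh7 LR, whose part in these results was not tested.

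Of 31 other transcripts that ERK signalling is known to raise, 14 (45.2%) were lower, 7 (22.6%) were higher and 10 did not pass, with a median log2 fold change of -0.14. Of all features tested 22.4% were lower and 23.3% higher, so that the share of higher genes was near that of all features. Past 2-fold, PLAUR, the urokinase receptor gene (-1.32, adjusted p = 3.26e-04), SPHK1, a sphingosine kinase gene (-1.13, adjusted p = 1.13e-05), HMGA2, an oncofetal chromatin protein gene (-1.12, adjusted p = 2.06e-06) and the bicarbonate transporter gene SLC4A7 (-1.02, adjusted p = 8.61e-05) were lower. The EGFR ligand genes AREG (3.43, adjusted p = 2.24e-07) and HBEGF (1.49, adjusted p = 1.46e-04) and the urokinase gene PLAU (1.64, adjusted p = 5.52e-06) were higher. The urokinase gene and the gene of its receptor moved in opposite directions. AREG, PLAU, HMGA2 and SPHK1 passed 2-fold at an adjusted p under 0.001 in all 13 alternatives. PLAUR did not in 6, among them without Huh7 P replicate 1, 2 or 3 or Huh7 LR replicate 2 or 3 (adjusted p from 0.00111 to 0.00261). HBEGF did not in 4, among them without Huh7 P replicate 1, 2 or 3 (adjusted p from 0.00101 to 0.00125), and SLC4A7 did not in 4, among them without Huh7 LR replicate 2 (-0.86). CCND1, the cyclin D1 gene, did not pass (log2 fold change 0.09, 95% interval -0.06 to 0.24).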

How the data were processed

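RNA-seq covered Huh7 P and Huh7 LR, with 3 samples each that the study's methods call independent. The table deposited by the authors holds unnormalized read counts for each gene and library, and FPKM values that the authors scaled for transcript length and depth. The submitters' processing notes name TopHat2, Cufflinks and DESeq and the build mm10, although the identifiers are human, and the counting program, annotation and use of strand are not given in the sources used here. The labels' extraction text names an insect, and 34 lines without a gene were left out. Columns were matched to samples by title.

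Counts were tested in R 4.3.3 with edgeR 4.0.16: filterByExpr (minimum count 10, minimum total 15), TMM, and the quasi-likelihood test over 17531 features with Benjamini-Hochberg adjustment. Each standard error was the absolute log2 fold change divided by the square root of F. Differences used an adjusted p under 0.05, and passing 2-fold an adjusted p under 0.001. Ratios of related genes used an exact permutation test (scipy 1.17.1). Log2 CPM for the similarity of patterns had 0.1 added. Alternatives were DESeq2 1.42.0, its size factors, 2 other count filters, a replicate block, limma-trend (limma 3.58.1) on FPKM after adding 0.1 or 1 and taking log2 (0.5 FPKM or more in 3 or more libraries), and each library left out. On simulated counts, the edgeR fit recovered 91 of 100 genes planted at an absolute log2 fold change of 1. At 2 it recovered 100 of 100. It also called 22 unchanged genes, and DESeq2 called 42. Only 200 genes were changed there, against 45.7% of features passing in these data, so the error rate in these data was not tested.

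The 10 genes and the lists, written from general knowledge, were chosen with earlier results of these data known. Named genes of the lists were those past 2-fold and the 2 highest and 2 lowest that passed with at least 1 CPM in a line, and for genes past 2-fold the 3 most similar. Relatives outside this rule, CCND1 and the motifs were chosen after their values or letters were seen. Coordinates come from GENCODE release 29 (GRCh38). With 3 samples a group, p-values measure the spread between these samples. Figures were drawn with matplotlib 3.10.9.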

Additional observations from a re-analysis of the deposited data

How the results depend on the processing

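In all 13 alternatives (130 values) none of the 10 genes turned its direction or crossed an adjusted p of 0.05, so that 3 were higher and 6 lower each time. Of 286 values of 22 other named genes, 278 kept their direction and side of an adjusted p of 0.05 and 8 no longer passed it, 7 of them of MKNK1 and 1 of SHOC2. Of 229 values of 18 further genes named in the text, 201 were on the same side and direction, 17 no longer passed (DUSP7, EGR2 and SPRY1), 2 newly passed (DUSP5 and SPRED3) and 9 turned sign, all of genes that had not passed. The latter were SPRED3 with the replicate block (-0.13), ETV1 with limma-trend (0.05 with 0.1 added and 0.04 with 1 added), and values with 1 library left out, which ranged from -0.31 to 0.73 for SPRED3, from -0.31 to 0.06 for DUSP5 and from -0.14 to 0.06 for ETV1. Requiring 2-fold and an adjusted p under 0.001 left 1 higher and 1 lower of the 10 genes, 2 higher and 0 lower of the relatives and feedback inhibitors, 4 higher and 3 lower immediate early genes, 3 higher and 4 lower of the other ERK transcripts, and 0 higher and 0 lower of the ERK cascade. Without Huh7 P replicate 3, SPRY4 was also lower past this level (-1.03, adjusted p = 1.8e-04) and EGR1 no longer passed it. With limma-trend on log2(FPKM + 0.1) and on log2(FPKM + 1), 3 relatives and feedback inhibitors and 5 genes of the cascade were lower. With each library left out in turn, 3 to 6 relatives and feedback inhibitors were lower, and 1 to 5 genes of the cascade were higher and 3 to 8 lower, and the cause was not tested. The log2 ratios of the 4 pairs kept their direction in all 7 alternatives.

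Replicate numbers are shared by the lines. Deviations of samples with the same number correlated by 0.029 to 0.0317 over genes, and those with different numbers by -0.0279 to -0.00213. All these values are small, so the numbers were not taken as pairs. With the replicate block, 4089 features were higher and 4033 lower, against 4093 and 3923 without it, and 3 of the 10 genes were higher and 6 lower in both fits. EGR1 had the smallest counts of the 10 genes, 150 to 545 a library, and its value depends most on the pseudocount.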
